A study of Arabidopsis thaliana with 10 samples.

Results

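The low sulfate response of Arabidopsis roots that lack both SDI1 and SDI2 was read from 4 of the 10 arrays of the study. The knockout roots on low sulfate (KO -S) came from sdi1sdi2 double knockout plants on agar with 15 µM sulfate, 1 array of line 1 and 1 array of line 4. The knockout roots on full sulfate (KO +S) came from the same 2 lines on 1500 µM sulfate. Wild-type Columbia roots on 15 µM sulfate (Col -S, 2 arrays) and on 1500 µM sulfate (Col +S, 2 arrays) were set beside them, and 2 arrays of SDI1 overexpression lines on 1500 µM sulfate entered only the estimate of the spread. All plants were sown directly on their medium and grown for 10 days, so the roots had been on low sulfate since germination. All media held sucrose, and magnesium chloride replaced the missing magnesium of the low sulfate medium. The alleles behind the 2 knockout lines are not given in the sources used here. Since the 2 arrays of each knockout group are 2 plant lines, the spread within a group holds differences between lines. Each array is bulk root RNA, in which fewer cells of a type and less RNA per cell cannot be told apart.

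Plants take up sulfate, activate it with ATP sulfurylase, reduce it through sulfite to sulfide and build it into cysteine, from which methionine and glutathione are made. In Brassicaceae a large share of sulfur also goes into glucosinolates, defence compounds whose aliphatic class is built from methionine. SDI1 and SDI2 are sulfur deficiency induced genes, and in Arabidopsis SDI1 is known to hold back aliphatic glucosinolate synthesis by binding the transcription factor MYB28.

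Levels below are on a log2 scale with an unknown zero point, and all differences are -S minus +S in log2 units ± SE. All tests are limma's, adjusted by Benjamini-Hochberg for the 22197 probe sets tested, and a probe set was called at an adjusted p under 0.05. Arrays of 1 group correlated at 0.9904 to 0.9959 over all probe sets. The background level of an array, set by bacterial control probe sets, was -0.58 in KO -S line 1, -0.05 in KO -S line 4, -0.51 in KO +S line 1 and -0.52 in KO +S line 4. A group with no array above its background gives only a lower bound of the fold. SDI2 (AT1G04770), the targeted gene with a listed probe set, read 0.31 and -1.52 in KO -S and -0.35 and -1.16 in KO +S (line 1 first), against 5.65 and 5.47 in Col -S. It differed by 0.15 ± 0.50 between KO -S and KO +S (limma adjusted p = 0.93). Line 1 lay above its background on both media and line 4 under it. In Col SDI2 rose by 3.86, from 1.83 and 1.57 in Col +S. The knockout response minus the Col response was -3.71 ± 0.70 and was not called (limma adjusted p = 0.064). The annotation used here lists no probe set for SDI1.

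In the knockout, limma called 1426 probe sets, 6.42% of those tested. Of these 649 rose (2.92%) and 777 fell (3.5%), and 220 of the rises and 192 of the falls were at least 2-fold. Counts called in the gene lists below are to be read beside these shares. The median size of a called change was 0.76. A single listed gene was available for 705 of the 1426. Both groups lay under the background for 84 called probe sets, KO +S alone for 78 and KO -S alone for 84. The number of calls was 910 without KO -S line 1, 677 without KO -S line 4, 564 without KO +S line 1 and 842 without KO +S line 4. Rises outnumbered falls without KO -S line 4 (364 and 313), without KO +S line 1 (303 and 261) and in a fit to the KO arrays alone (507 and 495).

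Of the genes of sulfate transport and assimilation, 3 of 30 listed had a probe set with a single gene. In the gene lists below such genes count as measured, whether above the background or not. APS3 (AT4G14680) and the sulfite reductase SIR (AT5G04590) rose, while APS4 (AT5G43780) fell. APS3, a plastid ATP sulfurylase, read 4.75 and 4.81 in KO -S, against 1.74 and 1.37 in KO +S. The groups lay far apart on this probe set, by 3.23 ± 0.14 (limma adjusted p = 3.5e-06). APS4, another ATP sulfurylase, read 3.92 and 3.72 in KO -S, against 7.70 and 7.67 in KO +S, a difference of -3.87 ± 0.11 (limma adjusted p = 9.3e-08). The 2 isoforms thus moved in opposite directions. SIR, which reduces sulfite to sulfide, read 7.23 and 7.29 in KO -S, against 5.86 and 5.93 in KO +S, a difference of 1.37 ± 0.10 (limma adjusted p = 9.1e-05). HL (AT5G54390), a HAL2-like phosphatase of the family that removes the by-product of sulfation reactions, rose by 2.27 ± 0.12 (limma adjusted p = 8.3e-06), with 4.88 and 4.85 in KO -S and 2.56 and 2.63 in KO +S.

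**Figure D1:**
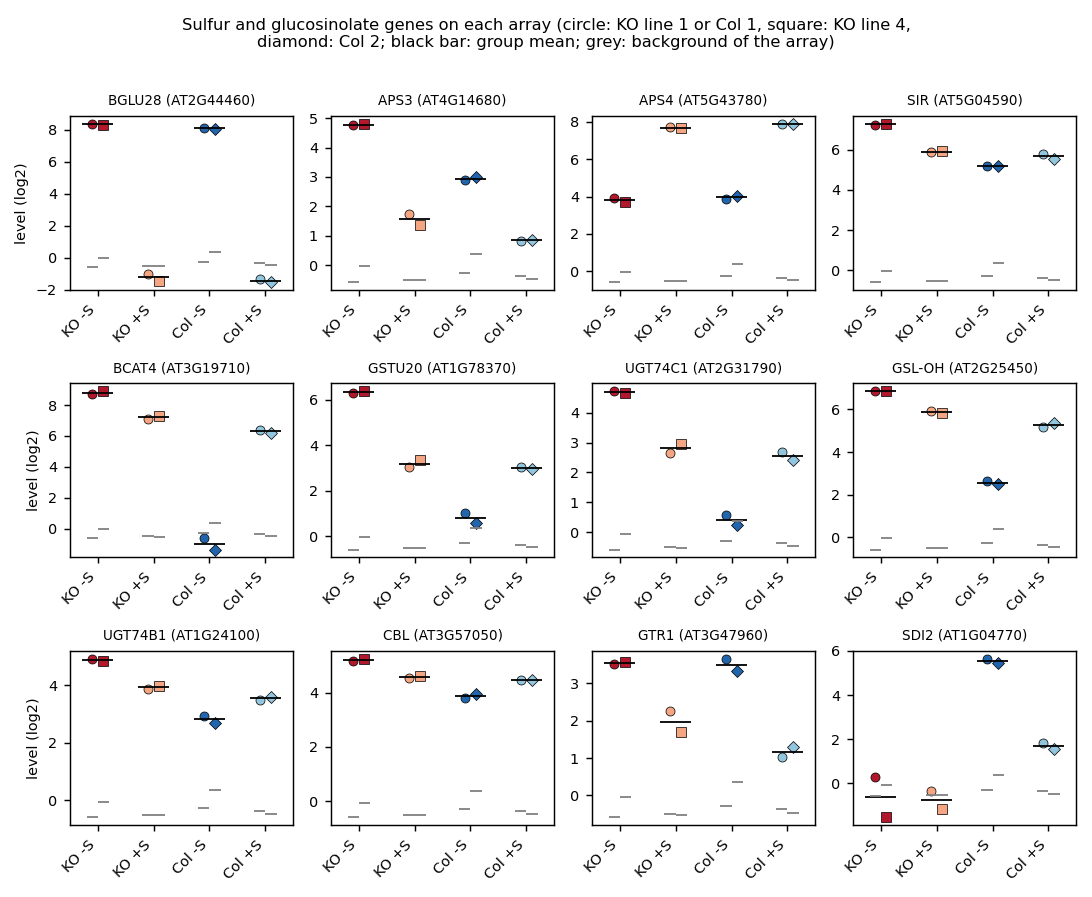
Level of 12 sulfur and glucosinolate genes on each array (log2, y axis) in KO -S, KO +S, Col -S and Col +S (x axis). Circles are KO line 1 or Col 1, squares KO line 4, diamonds Col 2, black bars group means (n = 2) and grey bars the background level of each array. BCAT4, GSTU20, UGT74C1 and GSL-OH lie above KO +S in KO -S and below Col +S in Col -S, whereas BGLU28 is high and APS4 low in both -S groups.

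Among genes of methionine and cysteine metabolism, 4 of 19 were measured and 1 rose. This was CBL (AT3G57050), the cystathionine beta-lyase that makes the precursor of methionine, with 5.17 and 5.25 in KO -S and 4.53 and 4.60 in KO +S. Its difference was 0.65 ± 0.10 (limma adjusted p = 0.0052), and the call was lost without KO +S line 1. MGL, methionine gamma-lyase, stood at 0.73 ± 0.22 (limma adjusted p = 0.094), LCD at -0.08 ± 0.10 and HMT-1 at 0.06 ± 0.10. Of 5 measured genes of glutathione and thiol redox, out of 25, both glutathione reductases rose. GR1 rose by 0.52 ± 0.09 (limma adjusted p = 0.0096) and GR by 0.63 ± 0.13 (limma adjusted p = 0.026). The call of GR was lost without any 1 of the 4 KO arrays. That of GR1 was lost without KO -S line 1 or either KO +S array, and with the line block in a fit to the KO arrays alone (limma adjusted p = 0.0581). The sulfurtransferases STR17, STR18 and STR19 stood between -0.19 and -0.04 and were not called, STR17 with both groups under the background. STR18 rose by 1.27 in Col, so that its response was lower in KO (difference -1.32 ± 0.16, limma adjusted p = 0.0061).

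Genes of aliphatic glucosinolate synthesis were higher on low sulfate in the knockout. Of 29 listed, 5 were measured: 4 rose and AOP3 lay under the background in both groups, with a median difference of 1.59 over the 5 against 0.00 over all tested probe sets. BCAT4 (AT3G19710), the aminotransferase that opens methionine chain elongation, read 8.70 and 8.90 in KO -S, against 7.11 and 7.32 in KO +S. Its difference was 1.59 ± 0.21 (limma adjusted p = 0.0023) and nearly the same in both lines, 1.60 in line 1 and 1.58 in line 4. GSTU20 (AT1G78370), a glutathione transferase placed in the core pathway, read 6.32 and 6.38 in KO -S, against 3.04 and 3.36 in KO +S, the largest difference of the 5 at 3.15 ± 0.15 (limma adjusted p = 5.5e-06). UGT74C1 (AT2G31790), a glucosyltransferase, rose by 1.88 ± 0.16 (limma adjusted p = 0.00017), with 4.72 and 4.67 in KO -S and 2.66 and 2.96 in KO +S. GSL-OH (AT2G25450), which hydroxylates the side chain, rose by 0.97 ± 0.11 (limma adjusted p = 0.00085), with 6.86 on both KO -S arrays and 5.94 and 5.84 in KO +S. These 4 calls held in all 22 alternatives.

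All 4 genes went the other way in the wild type. BCAT4 read -0.63 and -1.35 in Col -S, against 6.40 and 6.22 in Col +S, and lay under the background on both Col -S arrays. GSTU20 read 1.01 and 0.61 in Col -S against 3.05 and 2.97 in Col +S, and UGT74C1 0.59 and 0.23 against 2.69 and 2.43. For BCAT4 the knockout response minus the wild-type response was at least 7.85, since its Col fall is a lower bound (limma adjusted p = 2.5e-06 for the fitted values). The same difference was 5.35 ± 0.21 for GSTU20 (limma adjusted p = 6.2e-06), 4.03 ± 0.23 for UGT74C1 (limma adjusted p = 4.1e-05) and 3.66 ± 0.15 for GSL-OH (limma adjusted p = 7e-06). UGT74B1 (AT1G24100), the glucosyltransferase of the core pathway listed with the indolic class and its only measured member of 16, behaved in the same way: it rose by 0.96 ± 0.13 in KO (limma adjusted p = 0.0031) and fell by 0.73 in Col, a difference of 1.69 ± 0.19 (limma adjusted p = 0.0038). The transcription factors MYC3 and MYC4, the 2 measured of 11 glucosinolate regulators, stood at -0.29 ± 0.19 and -0.43 ± 0.24 in KO and were not called. No probe set with a single listed gene was available for MYB28 or any other MYB gene.

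SIR and CBL showed the same opposed directions. SIR read 5.20 and 5.19 in Col -S against 5.78 and 5.54 in Col +S, and its response differed between the genotypes by 1.83 ± 0.15 (limma adjusted p = 0.00047). CBL fell by 0.58 in Col, and its response differed by 1.23 ± 0.14 (limma adjusted p = 0.0045). APS3 rose in both genotypes, with 2.89 and 2.98 in Col -S against 0.82 and 0.86 in Col +S. The responses differed by 1.13 ± 0.20 (limma adjusted p = 0.0497), which was not called with knockout line as a block (limma adjusted p = 0.0707). For HL the difference was 0.95 ± 0.16 (limma adjusted p = 0.043), also not called with the block (limma adjusted p = 0.0833). APS4 fell by 3.87 in KO and 3.94 in Col, a difference of 0.07 ± 0.15 (limma adjusted p = 0.93).

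On the side of glucosinolate breakdown and transport, 2 of 4 measured genes rose, out of 14 listed. BGLU28 (AT2G44460), a beta-glucosidase known as a marker of sulfur deficiency, read 8.38 and 8.28 in KO -S, against -1.04 and -1.43 in KO +S. Both KO +S arrays lay under the background, so the rise was at least 457-fold (limma adjusted p = 3.3e-09). This bound depends on the background used and was 155-fold with the highest control probe set as background. GTR1 (AT3G47960), a glucosinolate transporter, read 3.51 and 3.58 in KO -S, against 2.25 and 1.71 in KO +S, a rise of 1.57 ± 0.19 (limma adjusted p = 0.0014). Its relative GTR2 stood at -0.22 ± 0.15 and the root beta-glucosidase PYK10 at -0.34 ± 0.15, neither called. In Col BGLU28 also rose, at least 365-fold with Col +S under the background, so that the size of its response cannot be compared between the genotypes. For GTR1 the response in KO minus that in Col was -0.77 ± 0.27 (limma adjusted p = 0.37).

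Other large rises among genes with a name came from several families. AT1G12030, of the DUF506 family, read 5.88 and 5.59 in KO -S against -1.42 and -1.37 in KO +S, at least 75.8-fold. AT3G05400, of the sugar transporter family, read 5.16 and 5.13 against -0.74 and -0.83, at least 50.3-fold. AT4G31330, of the DUF599 family, rose by 4.47 ± 0.15 with both groups measured. The neighbouring genes AT1G75280 and AT1G75290, both related to isoflavone reductases, rose together, the first by 4.17 ± 0.10 and the second at least 12.7-fold with KO +S under the background. Limma adjusted p-values of these 5 genes lay between 3.3e-09 and 5.4e-07. With the highest control probe set as background the bounds were lower. They were 25.6-fold for AT1G12030, 17.0-fold for AT3G05400 and 4.30-fold for AT1G75290.

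Smaller rises with both groups measured were those of the MATE efflux family gene AT1G66760 (3.09 ± 0.14), the amino acid transporter family gene AT3G56200 (3.03 ± 0.14), the berberine bridge enzyme-like AT4G20820 (2.44 ± 0.18), the flavin monooxygenase FMO (AT1G12200, 2.30 ± 0.19), the kelch repeat gene AT3G27150 (2.16 ± 0.13) and the cystinosin homologue AT5G40670 (2.14 ± 0.10). AT5G40670, related to the animal exporter of cystine from lysosomes, read 5.78 and 5.64 in KO -S, against 3.62 and 3.52 in KO +S. Among genes under the background in KO +S, the annotated pseudogene AT4G05550 rose at least 9.37-fold, the CC-type glutaredoxin AT2G30540 at least 4.53-fold, the acetyltransferase-like AT2G23060 at least 3.08-fold and the methyltransferase family gene AT2G41380 at least 2.81-fold. With the highest control probe set as background these bounds are 3.17, 1.53, 1.04 and 0.951 in the same order. The last, being under 1, thus rests on that choice. All 10 genes of this paragraph were called in all 22 alternatives.

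The falls were led, after APS4, by AT4G07820, of the family of pathogenesis-related protein 1. It read 2.23 and 2.46 in KO -S, against 5.46 and 6.10 in KO +S, a difference of -3.43 ± 0.19 (limma adjusted p = 1.5e-05). AT4G39675 fell by 2.65 ± 0.13, AT5G56100 of the oleosin-like glycine-rich proteins by 2.39 ± 0.16, AT2G28780 by 2.38 ± 0.12, AT5G60760 by 2.27 ± 0.10 and the invertase and pectin methylesterase inhibitor family gene AT5G62360 by 1.95 ± 0.17. S8H (AT3G12900), the scopoletin hydroxylase of coumarin synthesis, read -0.99 and -0.51 in KO -S, against 2.02 and 2.28 in KO +S, a fall of at least 5.5-fold (limma adjusted p = 0.0001). That bound was 2.37-fold with the highest control probe set as background. S8H is induced by iron shortage in Arabidopsis. Of the 5 measured of 27 genes of iron deficiency and coumarins, BHLH101 was also called lower, with both groups under the background and the call lost without any 1 KO array. F6H1, PYE and BGLU42 stood at -0.24 ± 0.11, -0.17 ± 0.11 and -0.06 ± 0.15.

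Of 25 listed genes known to be switched on when carbon or energy is short, 9 were measured. In KO 4 of them fell and 1, SWEET13, rose, with a median of -0.65. By comparison, 3.5% of all tested probe sets were called lower and 2.92% higher in KO, with a median of 0.00. GLYK (AT1G80380), the glycerate kinase of photorespiration, read 3.51 and 2.81 in KO -S, against 5.71 and 5.32 in KO +S, a fall of 2.36 ± 0.24 (limma adjusted p = 0.00056). ATL8 (AT1G76410), a RING finger gene, read 0.94 and 0.28 in KO -S, against 2.86 and 3.45 in KO +S, a fall of 2.55 ± 0.24 (limma adjusted p = 0.00032). MCCA, a subunit of the enzyme that carboxylates methylcrotonyl-CoA in leucine breakdown, fell by 0.86 ± 0.12 (limma adjusted p = 0.0026). AKINBETA1, a subunit of the energy-sensing kinase SnRK1, fell by 0.65 ± 0.13 (limma adjusted p = 0.017), a call lost without KO -S line 4 or either KO +S array, and with the line block in a fit to the KO arrays alone (limma adjusted p = 0.0512). IVD, another enzyme of leucine breakdown, stood at -0.68 ± 0.18 (limma adjusted p = 0.065). AT3G15450, an aluminium-induced protein family gene outside the list, fell by 2.12 ± 0.22. SWEET13 aside, the test of the difference from Col called none of the genes named here, with values from -0.16 for GLYK to 0.78 for IVD. None of the 11 measured autophagy genes was called, with differences from -0.50 to 0.32.

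The SWEET sugar transporters did not move together. Of 17 listed, 16 had a probe set with a single gene, 9 of them under the background in both KO groups. In KO 3 rose and 2 fell, where 2.92% of all tested probe sets were called higher and 3.5% lower. SWEET2 (AT3G14770), a tonoplast transporter, read 3.87 and 3.69 in KO -S, against 2.51 and 2.34 in KO +S, a rise of 1.35 ± 0.14 (limma adjusted p = 0.00062). In Col it stood at 0.11, and the responses differed by 1.25 ± 0.20 (limma adjusted p = 0.031). SWEET13, a sucrose transporter of the plasma membrane, rose in both genotypes. It read 0.29 and 0.13 in KO -S against -0.66 and -0.54 in KO +S, at least 1.65-fold (limma adjusted p = 0.0019), a bound that does not exist with the highest control probe set as background. It rose at least 2.92-fold in Col. Its response was smaller in KO (difference -1.20 ± 0.15, limma adjusted p = 0.0063). SWEET14, its close relative, was called higher with all KO arrays under the background, a call lost without any 1 of them, and read 0.76 and 0.87 in Col -S, a difference between the responses of -1.27 ± 0.15 (limma adjusted p = 0.0063). Probe sets of such close relatives may share signal. The vacuolar fructose transporters SWEET17 (-0.51 ± 0.11, limma adjusted p = 0.028) and SWEET16 (-0.52 ± 0.13, limma adjusted p = 0.045) were lower. SWEET16 was not called with the line block (limma adjusted p = 0.0668) or without any 1 KO or Col +S array, and SWEET17 not without KO -S line 4, either KO +S array or either Col +S array. With the line block in a fit to the KO arrays alone neither was called (limma adjusted p = 0.0567 for SWEET16 and 0.0796 for SWEET17). SWEET11, the measured phloem marker, read 2.80 and 1.05 in KO -S, against 3.15 and 4.12 in KO +S, with the lines far apart on each medium (-1.71 ± 0.49, limma adjusted p = 0.081).

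Of 39 listed nuclear genes of photosynthesis, 8 were measured. In KO 6 of them fell, with a median of -0.63, and in Col all 8 fell. Over all tested probe sets 3.5% were called lower in KO and 5.0% in Col, with medians of 0.00 and 0.02. PSAN, of photosystem I, read -0.16 and -0.46 in KO -S, against 0.87 and 0.75 in KO +S, a fall of 1.12 ± 0.18 (limma adjusted p = 0.0074). ATPC1, of the chloroplast ATP synthase, read 1.57 and 1.44 in KO -S, against 2.42 and 2.32 in KO +S, a fall of 0.86 ± 0.10 (limma adjusted p = 0.00087). PSBW fell by 0.83 ± 0.18, LHCB4.1 by 0.67 ± 0.11 and LHCB4.2 by 0.53 ± 0.13, and PRK was called lower although neither group was above background. RCA and PSAE-1 stood at -0.58 ± 0.17 and -0.55 ± 0.18. LHCB4.2 was not called with the line block (limma adjusted p = 0.0687). Only the call of ATPC1 held in all alternatives: of the 6 falls, 3 were left without KO -S line 1, 2 without KO -S line 4, 1 without KO +S line 1 and 2 without KO +S line 4. Of 12 leaf markers, 4 were measured (LHCB4.1, RCA, PSAE-1 and SBPASE), 1 was called lower and SBPASE lay under the background in both groups. Their summed linear level was 10.1 and 10.4 in KO -S and 15.6 and 15.4 in KO +S. LHCB4.1, RCA and PSAE-1 are also among the 8 photosynthesis genes above, so this sum repeats their values. The part of shoot tissue in the falls was not tested.

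Of 69 measured of 129 listed genes encoded in the plastid, 54 stood above 0 in KO and 26 in Col, with a median of 0.21 in KO and -0.07 in Col. Over all tested probe sets the medians were 0.00 and 0.02, and 2.92% were called higher in KO. The 69 genes were read on the same arrays and are not replicates. Limma called 4 of them higher: psbB of photosystem II (1.25 ± 0.14, limma adjusted p = 0.00091), ndhG (0.92 ± 0.22, limma adjusted p = 0.042), cemA (0.59 ± 0.13, limma adjusted p = 0.028) and accD (0.59 ± 0.14, limma adjusted p = 0.041). psbB read 2.00 and 2.29 in KO -S, against 0.93 and 0.86 in KO +S, and its response differed from that of Col by 1.39 ± 0.20 (limma adjusted p = 0.016). With the line block accD and ndhG were not called (limma adjusted p = 0.0538 and 0.0545). Without either KO -S array or KO +S line 4, 1 call was left, and without either Col +S array 2. The count was 8 without the dimmest probe sets, 10 with probe sets above background on at least 2 arrays, 9 with an intensity trend and robust variances and 9 with the line block in a fit to the KO arrays alone.

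**Figure D2:**
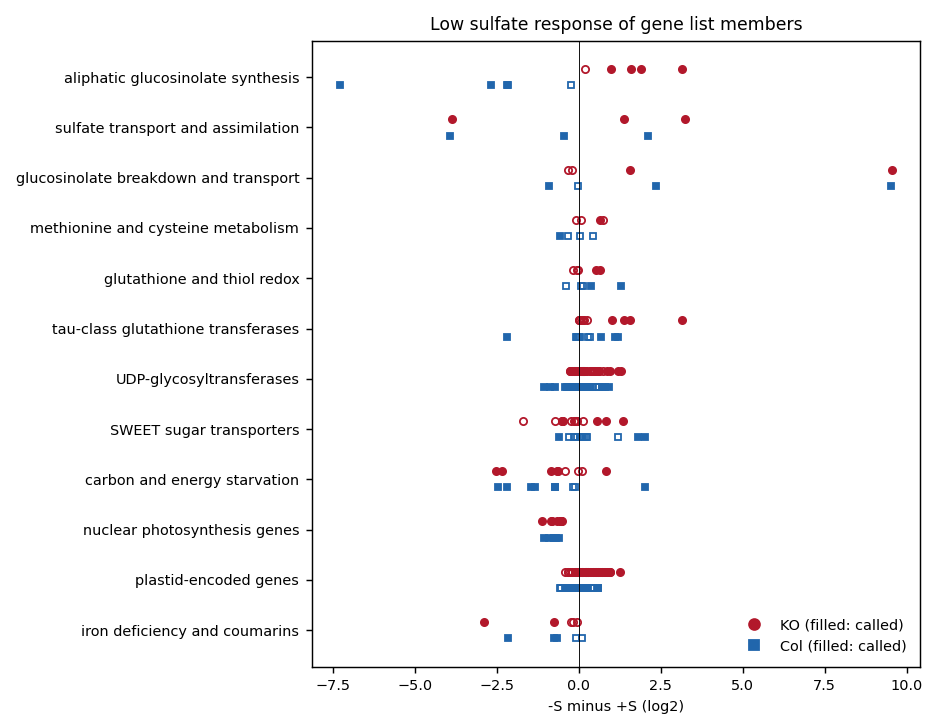
Difference -S minus +S (log2, x axis) of each measured member of 12 gene lists (y axis), red circles for KO above blue squares for Col. Filled symbols were called by limma. In aliphatic glucosinolate synthesis the KO members lie right of 0 and the Col members left of it, and 54 of 69 plastid-encoded genes lie right of 0 in KO.

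Some members of enzyme families that handle reactive or glycosylated compounds rose. Over all 12940 genes with a probe set of a single gene, 312 rose and 391 fell in KO. Of 11 measured tau-class glutathione transferases, out of 29, 4 rose: GSTU20, GSTU25 (1.56 ± 0.20), GSTU27 (1.38 ± 0.10) and GSTU22 (1.01 ± 0.16, lost without KO +S line 4). All 11 stood above 0, the uncalled 7 at up to 0.24, but 4 of these 7 lay under the background in both groups. Of 51 measured UDP-glycosyltransferases, out of 64, 7 rose and 0 fell. Beside UGT74B1 these were UGT73B4 (1.28 ± 0.17), the flowering-time gene UGT87A2 (0.84 and 0.39 in KO -S, against -0.44 and -0.74 in KO +S), the monolignol glucosyltransferases UGT72E2 (0.84 ± 0.16) and UGT72E3 (0.62 ± 0.14), the cytokinin N-glucosyltransferase UGT76C2 (0.58 ± 0.12) and UGT72B3 (0.54 ± 0.11). The count of 7 was 4 without KO -S line 1 or KO +S line 4 and 3 without KO -S line 4 or KO +S line 1, while UGT74B1, UGT73B4 and UGT87A2 were called in all alternatives. UGT74C1 was counted with the glucosinolate genes only. Of 19 measured beta-glucosidases, out of 47, BGLU28 and its neighbour BGLU15 (1.52 ± 0.11, limma adjusted p = 7e-05) rose, while BGLU46 fell by 1.09 ± 0.16 and BGLU45 was called lower with both groups under the background. BGLU45 and BGLU46 act on monolignol glucosides.

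Some of the falls lost their call when 1 array was left out. The 6 called genes whose response differed most between the lines were ATL8, AT2G25735, CML38, AT1G15010, AT3G02840 and WRKY53. In the last 5 the KO +S array of line 1 stood apart from the other 3 knockout arrays. CML38 (AT1G76650), a calmodulin-like gene induced by wounding and low oxygen, read 0.66 and 0.20 in KO -S, against 3.62 and 1.85 in KO +S (-2.31 ± 0.57, limma adjusted p = 0.048). Without KO +S line 1 the difference was -1.43 and not called (limma adjusted p = 0.262). The Col +S arrays also differed from each other on this probe set, at 0.04 and 1.53. WRKY53, a transcription factor of senescence and stress, read -0.02 and -0.18 in KO -S, against 2.04 and 0.80 in KO +S (-1.52 ± 0.33, limma adjusted p = 0.029), and without KO +S line 1 the difference was -0.90 (limma adjusted p = 0.0675).

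AT4G29780 (-2.16 ± 0.43), EXLA3, an expansin-like gene, and AT1G15010 lost their calls without KO +S line 1 as well. EXLA3 then stood at -0.93 and AT1G15010 at -0.90. AT2G25735 and AT3G02840 kept theirs without KO +S line 1, at -1.32 and -1.16. Leaving out either KO -S array lost the calls of AT4G29780, EXLA3, AT1G15010, AT2G25735, AT3G02840 and WRKY53. Those of EXLA3, AT1G15010 and CML38 were also lost without either overexpression array. ATL8 differed by -1.92 in line 1 and -3.17 in line 4 and was called in all alternatives. Of 8 measured calmodulin-like genes, out of 14, 2 were called lower, CML38 and CML43 (-0.39 ± 0.09), and of these CML43 was not called with the line block (limma adjusted p = 0.0739). The share called lower in KO over all tested probe sets was 3.5%, which also stands beside the WRKY count below. Neither CML call held without KO -S line 1, KO -S line 4, either Col -S array or KO +S line 1. Of 7 measured WRKY genes, out of 72, WRKY53 and WRKY22 were called lower, and 0 were called without KO -S line 1 or KO +S line 1. The wound response factor ORA47 was called lower too, and lost the call without KO +S line 1. What differed in the KO +S array of line 1 was not tested.

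**Figure D3:**
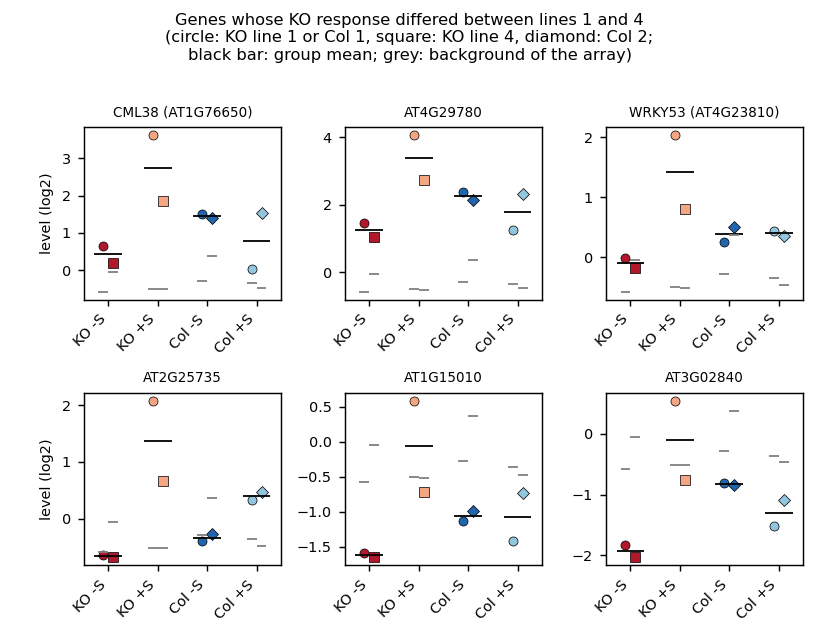
Level (log2, y axis) of CML38, AT4G29780, WRKY53, AT2G25735, AT1G15010 and AT3G02840 on each array of KO -S, KO +S, Col -S and Col +S (x axis), with symbols as marked in the title. On each panel the KO +S array of line 1 (circle) lies highest, at 3.62 for CML38 and 2.04 for WRKY53.

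The 2 knockout lines are the replicates behind every call, so their likeness among called probe sets follows from the choice and is given as a description only. Without regard to calls, 338 probe sets changed at least 2-fold in the same direction in both lines, 195 higher and 143 lower. Another 195 passed 2-fold in line 1 only and 197 in line 4 only, and 2 passed in opposite directions. Of all tested probe sets, 51.9% had no overlap between the 2 KO -S and the 2 KO +S arrays, as had all 1426 called. Among the called, the lines differed by a median of 0.15, and 15 lay at least 1 apart. The differences of the 2 lines correlated at 0.719 over all 22197 probe sets, as a description: the points share their arrays.

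**Figure D4:**
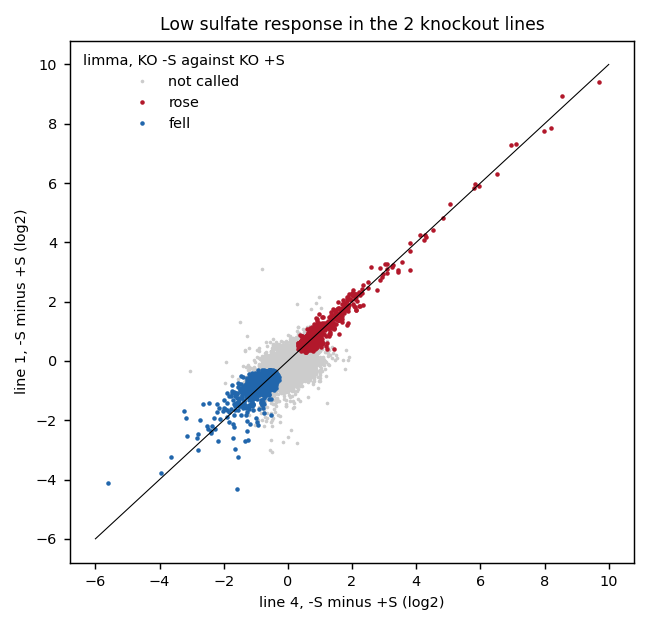
Difference -S minus +S of each probe set in knockout line 4 (x axis, log2) and line 1 (y axis, log2). Red points rose and blue points fell by limma in KO, grey points were not called, and the line marks equal differences. The large rises lie close to the line, while falls scatter on both sides of it, those below having the larger fall in line 1.

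Set beside the wild type, in which 2095 probe sets were called (9.44%), 985 higher (4.44%) and 1110 lower (5.0%), most of the knockout response had the same sign. Of the 1426 probe sets, 1238 had the same sign in Col. The share with equal signs over all tested probe sets was not computed. The test of the difference between the responses called 166 probe sets (0.748%), of which 136 (0.613%) were higher and 30 (0.135%) lower in KO. Of the 1426 knockout calls, 119 (8.35%) were also called in this test. The KO arrays enter both tests, so this share and the split by direction follow in part from the choice and are given as a description only. Of the rises, 97 were higher than in Col and 4 smaller, and of the falls 14 were lower than in Col and 4 smaller. Of the 97 rises, 42 had fallen in Col, 39 were not called there and 16 had risen. Without KO +S line 4 the test called 205 probe sets, 95 higher and 110 lower, so that the excess of higher responses was not seen in that setting.

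Of the 42 probe sets that rose in KO and fell in Col, 16 had a single listed gene. Beside those described, AT1G21440, of the phosphoenolpyruvate mutase family, rose by 1.71 ± 0.11 in KO and fell by 2.45 in Col (difference 4.16 ± 0.16, limma adjusted p = 4.8e-06). AT3G23570, an alpha/beta hydrolase family gene, read 4.35 on both KO -S arrays against 3.31 and 3.37 in KO +S, and 1.57 and 1.43 in Col -S against 3.33 and 3.29 in Col +S (difference 2.83 ± 0.15, limma adjusted p = 3.1e-05). AT2G43550, a defensin-like gene, differed by 2.53 ± 0.23 (limma adjusted p = 0.0011). AT4G01870, related to TolB proteins, rose in KO by 2.18 ± 0.12 and stood at 0.11 in Col (difference 2.07 ± 0.17, limma adjusted p = 0.00064).

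Of the 10 named genes with a lower response in KO than in Col, SWEET13, SWEET14 and AT1G49700 had at least 1 group under the background. AT5G61290, a flavin monooxygenase family gene, read -0.41 and -0.54 in KO -S against 0.95 and 0.84 in KO +S, and 1.38 and 1.47 in Col -S against 1.12 and 1.08 in Col +S (difference -1.70 ± 0.16, limma adjusted p = 0.0012). RALFL32 and AT5G47700 differed less than AT5G61290. RALFL32, a gene for a small secreted peptide, read 4.57 and 4.60 in KO -S against 5.87 and 5.78 in KO +S and was not called in Col (difference -1.16 ± 0.14, limma adjusted p = 0.0053). AT5G47700, a gene for an acidic protein of the large ribosomal subunit, fell in KO by 0.78 ± 0.11 and stood at 0.26 in Col (difference -1.04 ± 0.16, limma adjusted p = 0.022).

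**Figure D5:**
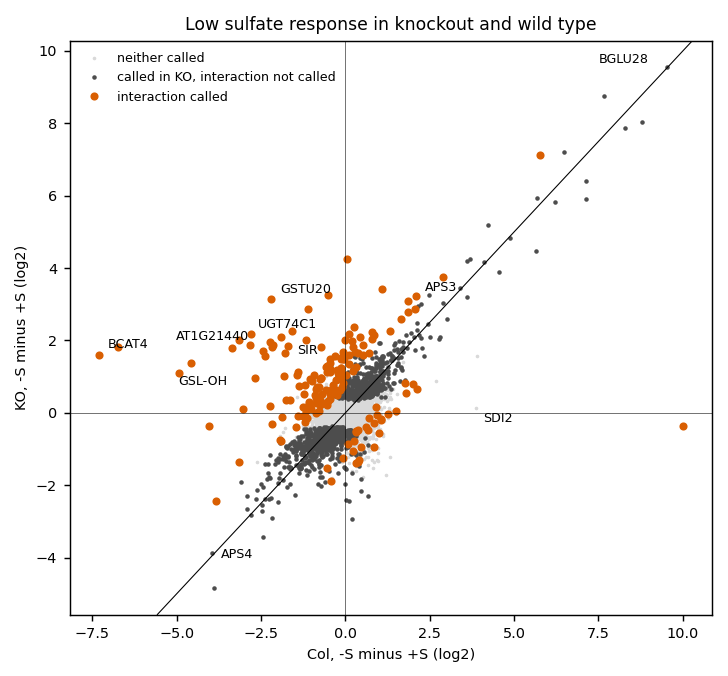
Difference -S minus +S of each probe set in Col (x axis, log2) and in KO (y axis, log2). Orange points were called in the test of the difference between the responses, dark points in KO only and grey points in neither, and the diagonal marks equal responses. APS4 lies near the diagonal, as does BGLU28, whose +S values are under the background in both genotypes, while BCAT4, GSTU20, UGT74C1, GSL-OH and AT1G21440 lie above 0 in KO and below 0 in Col.

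Of 19 measured expansins, out of 37, EXLA2 was called higher (0.76 ± 0.15, lost without KO -S line 4 or either KO +S array) and EXLA3 lower. The count of expansins that fell was 4 without the dimmest probe sets, with a trend and robust variances or with array weights, 5 with probe sets above background on at least 2 arrays, and 0 without KO -S line 1, KO +S line 1 or either overexpression array. EXLB1 stood at -0.46 ± 0.12 in KO (limma adjusted p = 0.055, and 0.0337 with the line block) and rose by 0.68 in Col, a difference of -1.14 ± 0.17 (limma adjusted p = 0.019). The root hair expansins EXPA18 and EXPA7, 2 of 13 root hair markers and the only ones measured, were not called in KO (0.41 ± 0.15 and 0.19 ± 0.14), while both rose in Col. The response in KO minus that in Col was -0.36 and -0.57 and was not called (limma adjusted p = 0.65 and 0.37), so no difference between the genotypes is shown. Their summed linear level was 20.6 and 22.8 in KO -S, against 17.4 and 17.5 in KO +S. Of 10 measured xyloglucan endotransglucosylases XTH26 was called higher (0.75 ± 0.10), at least 1.06-fold. Of 21 measured cytochrome P450 genes, 9 under the background in both KO groups, CYP78A9 rose (1.33 ± 0.16), at least 1.84-fold. With the highest control probe set as background both groups of these 2 genes lie under it. Over all 12940 genes with a probe set of a single gene, 312 rose and 391 fell, so 1 call in a list says little about the list. None of the 6 measured genes of auxin and root growth, 2 of the cell cycle, 7 of the IAA and SAUR families, 9 of the late embryogenesis abundant and dehydrin group or 3 reference genes was called in KO. Both KO groups lay under the background for 2 of the auxin and root growth genes and 5 of the IAA and SAUR genes. The same held for 4 of the late embryogenesis abundant and dehydrin genes. Markers of xylem and root cap, aquaporins, phosphate starvation genes and jasmonate ZIM-domain genes had no probe set with a single listed gene, and 721 of the 1426 calls fell on probe sets of this kind. Among those with no gene name in the annotation and both groups measured, 252269_at and 255105_at had the largest rises (8.02 ± 0.15 and 6.40 ± 0.14) and 264923_s_at and 263350_at the largest falls (-2.83 ± 0.20 and -2.72 ± 0.11).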

How the data were processed

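Each array holds labelled RNA of roots, per the labels. The authors deposited 1 log10 value per probe set and array. The background correction, summarization and normalization are not given in the sources used here. The log base was read from the spiked controls, which spanned 2.13 units against 1.82 expected on a log10 and 6.06 on a log2 scale. Values were multiplied by the log2 of 10, without further normalization. Control probe sets (64) and probe sets without values (554), with 5 in both sets, were left out, which left 22197. The number of arrays limits the precision: the median SE of a knockout difference was 0.13.

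A mean for each of 5 groups was fitted over all 10 arrays with limma 3.58.1 in R 4.3.3, with Benjamini-Hochberg adjustment at 0.05. The fit was also run on simulated data with independent noise and no line effects, which does not test the calls made here. Background on each array was the 0.95 quantile of its 22 Bacillus control probe sets. A bound sets the brighter group's mean against the mean, per dim array, of the higher of background and own value. The test of the difference is the knockout response minus the Col response, which share no arrays. Whether the Col arrays are separate cultures is not stated, and p-values then measure only the spread between these samples, which may be technical. Knockout arrays of 1 line at both sulfate levels are paired by line; their deviations correlated at 0.07, those of equally numbered Col arrays at -0.14. Gene names came from platform annotation, updated by Entrez ID with RefSeq TAIR10.1 (13436 of 13513 probe sets with a single gene).

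The comparison, the lists and the tests were chosen with earlier results of these data known. Genes were named by rule: the 12 largest rises and 12 largest falls, up to 8 by bound in each direction, the 8 highest and 8 lowest differences from Col, members of the sulfur and glucosinolate lists, up to 6 of each other list by moderated t statistic, the 6 with the largest line difference, and 2 rising and 2 falling unlisted probe sets. Alternatives were quantile normalization, median centring, filters on dim probe sets, an intensity trend with robust variances, fewer groups, array weights, blocks, 1 probe set per gene and leaving out each array.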

Additional observations from a re-analysis of the deposited data

Results flagged for a closer look

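The results here were picked because the knockout response differed from the Col response by limma's test of the difference; each value is the knockout difference minus the Col difference on the log2 scale. STR18 and EXLB1 aside, these genes were also called in the knockout. In 18 genes the knockout response was higher. These were BCAT4 (8.89), GSTU20 (5.35), UGT74C1 (4.03), GSL-OH (3.66) and UGT74B1 (1.69) of glucosinolate synthesis, SIR (1.83), APS3 (1.13), CBL (1.23) and HL (0.95) of sulfur metabolism, and AT1G21440 (4.16), AT3G23570 (2.83), AT2G43550 (2.53), AT4G05550 (2.35), AT4G01870 (2.07), psbB (1.39), AT1G12030 (1.37), SWEET2 (1.25) and AT1G66760 (1.25). In 10 it was lower: the EF-hand gene AT5G39670 (-1.81), AT1G49700 (-1.74), AT5G61290 (-1.70), AT2G18210 (-1.40), SWEET14 (-1.27), SWEET13 (-1.20), RALFL32 (-1.16), AT5G47700 (-1.04), STR18 (-1.32) and EXLB1 (-1.14). For AT1G12030, AT4G05550, BCAT4, AT1G49700, SWEET13 and SWEET14 at least 1 of the groups lay under the background, so their fitted values are not measured sizes. For BCAT4 the difference is at least 7.85. Calls of the difference were lost in 15 of 20 alternatives for APS3, 13 for HL, 12 for AT2G18210, 10 for AT1G66760 and SWEET2, 8 for AT5G47700, 7 for EXLB1, 6 for AT1G12030, AT5G39670 and psbB, and 1 for AT4G05550.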

How the results depend on the processing

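No called named result changed sign in any alternative. Of 1426 knockout calls 45.5% were rises, against 53.8% without KO -S line 4, 53.7% without KO +S line 1 and 50.6% with the KO arrays alone. The count of 1426 knockout calls ran from 564 to 1457 when 1 array was left out, and was 617 with 1 probe set per gene, where fewer probe sets are tested. The other alternatives gave 1002 to 1957. The count of 166 for the difference from Col ran from 84 to 205 when 1 array was left out. It was 264 with only probe sets above the background on at least 2 arrays, 251 with an intensity trend and robust variances, 106 with a block for knockout line and Col number, and 53 with 1 probe set per gene. With the knockout line as a replicate block the counts were 1284 and 142, and of 131 named calls 8 were lost, those given in the report and that of TBL19 (limma adjusted p = 0.0634), while EXLB1 (0.0337) and CML37 (0.0287) were gained. Chosen after seeing the data, the line block in a fit to the 4 knockout arrays alone gave 1158, and 12 named calls were lost: GR1, AKINBETA1, PRK, LHCB4.2, EXLA2, CML43, UGT72B3, SWEET14, SWEET16, SWEET17, TBL19 and ndhG (limma adjusted p from 0.0512 to 0.119). Of 166 higher or lower calls 81.9% were higher, against 46.3% without KO +S line 4. Of 103 named knockout calls 68 held in every alternative, as did 17 of 28 for the difference. Where 1 array of a group is left, it is assumed to vary like the other groups. With the highest control probe set as background, 9 of the named bounds stayed over 1, those of AT2G41380 (0.951) and EXLA3 (0.878) did not, and for 13, among them SWEET13, CYP78A9 and XTH26, both groups lay under it and no bound exists. The 9 that stayed over 1 were lower than printed, for BGLU28 155-fold instead of 457-fold. Dim probe sets are the least certain, since the background of KO -S line 4 was the highest of the knockout arrays.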

Other observations

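The probe sets in this paragraph were chosen after their values were seen. A few genes outside the lists had a higher response in KO than in Col. TAAC (AT5G01500), a plastid carrier that exports the activated sulfate donor used for sulfation, rose by 0.94 in KO and fell by 1.06 in Col (difference 2.00, limma adjusted p = 0.000728). SUFE2 (AT1G67810), an activator of cysteine desulfurase in iron-sulfur cluster assembly, rose by 1.56 in KO and stood at -0.31 in Col (difference 1.87, limma adjusted p = 0.00252). AT1G72810, a threonine synthase family gene at the branch point with methionine, rose by 0.88 in KO and fell by 0.99 in Col (difference 1.87, limma adjusted p = 0.000642). The probe set 255437_at, which has no listed gene, read 2.56 and 2.94 in KO -S and lay between -1.80 and -1.32 on the other 8 arrays (difference 4.22, limma adjusted p = 0.000199).

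Some changed genes lay side by side in the locus numbering. Among probe sets with a single gene that changed at least 2-fold, 7 runs of consecutive genes moved in 1 direction. AT5G37970, AT5G37980 and AT5G37990 rose by 2.11, 2.09 and 1.79, AT4G24130 and AT4G24140 by 1.83 and 1.45, and AT1G51830 and AT1G51840 by 1.11 and 1.04. The tropinone reductase-like genes TRI (AT2G29330) and AT2G29340 fell by 1.44 and 1.30, and AT4G30450 and AT4G30460 by 1.41 and 1.09. The other 2 runs were AT1G75280 with AT1G75290, and BGLU15 with BGLU28. Probe sets of related neighbours can share signal, and how many such runs chance gives was not tested.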
